A study of Mus musculus with 168 samples.

Results

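The 9 genes described here are Gfap, Aqp4, Aldh1l1, Slc1a2, Slc1a3, S100b, Glul, Gja1 and Aldoc, genes known from astrocytes, measured in tubes of laser-captured neurons. They were taken by name from a table of 39410 rows, all 9 were found, and all 9 passed the filter on low values in the fits reported here, though Gfap failed it in the ocular nuclei or red nucleus under some of the alternative settings. The study captured neurons of 6 populations from delta7 mice, a model of spinal muscular atrophy (SMA), and from littermate controls at postnatal days 2, 5 and 10. SMA mice were Smn-/- and controls Smn+/+, and mice of both genotypes carried the human transgenes SMN2+/+ and SMN∆7+/+, so the controls are not wild-type animals. The populations were the ocular (oculomotor and trochlear), facial, vagus and hypoglossal motor nuclei, motor neurons of the lumbar spinal cord, and neurons of the red nucleus, a midbrain nucleus that holds no cholinergic motor neurons. About 150 cells were pooled in each tube and made into Smart-seq2 libraries, in which cDNA is copied from whole polyadenylated transcripts. The 168 libraries came from 34 mice, 19 SMA and 15 control, and gave 160 samples of a mouse and a population (88 SMA, 72 control). SMA mice numbered 9 at day 2, 5 at day 5 and 5 at day 10, and controls numbered 6, 5 and 4 at these ages. Each of the 36 groups of population, age and genotype held 3 to 7 mice, and the mouse was the replicate.

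Astrocytes are the glia whose fine processes wrap neuronal cell bodies and synapses. They take up glutamate through the transporters encoded by Slc1a2 (GLT-1) and Slc1a3 (GLAST), turn it into glutamine with glutamine synthetase (Glul), move water through aquaporin 4 (Aqp4) and pass small molecules to each other through connexin 43 channels (Gja1). Aldh1l1, an enzyme of folate metabolism, is a broad astrocyte marker. Gfap encodes the intermediate filament glial fibrillary acidic protein, which is known to rise in reactive astrocytes, the state astrocytes enter around injured or diseased neurons. S100b, a calcium-binding protein, and Aldoc, the brain form of aldolase, are used as astrocyte markers but are also made by some neurons. A laser cut around a neuron can carry astrocyte processes with it. Whether a member's RNA came from the neuron or from tissue cut with it was not tested, and fewer astrocyte parts in a tube cannot be told apart from less RNA in each.

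The labels were first checked on Smn1 and on motor neuron genes. Smn1 was 4.32 to 63.3 RPKM (a read density corrected for how long a gene is and how deeply its library was sequenced) in the 72 control samples, with a median of 22.8. In the 88 SMA samples it was 0 in 70 and at most 4.24. Chat, which makes acetylcholine and marks motor neurons, had medians of 14.0 to 32.6 RPKM in the motor populations of either genotype and at most 1.72 in any red nucleus sample. Slc17a6, the vesicular glutamate transporter of the red nucleus neurons, was 120.8 to 249.7 RPKM in red nucleus samples. Of the motor samples, the ocular sample of SMA mouse 250 at day 10 reached 119.4 and the vagus sample of SMA mouse 207 at day 2 reached 79.01, and all others were at most 49.4. Without these 2 samples no member call between genotypes or ages was lost or gained, and of the population calls 1 was gained (Aldh1l1, hypoglossal nucleus, adjusted p = 0.0443). Sequencing depth was worked out from the steps between low values: its median was 5.89 M reads (M for mega), its lowest value 0.342 M and its highest 16.3 M. The shallowest library was the red nucleus control of mouse 252 at day 10, and the next had 1.44 M. The labels do not say how the mice were distributed over litters. Each library name holds a number after the letters LCM, whose meaning is not stated and which runs largely in blocks by age. In comparisons of day 10 with day 2, age and the order of these numbers therefore cannot be fully told apart. The number was not part of any fit. The labels say that reads from an earlier deposit were added to the lumbar control libraries of day 5. Genotype and this addition of reads cannot be told apart at that age.

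The members lie apart from each other in the genome. In the GENCODE M21 annotation of GRCm38, Gfap spans chr11:102887336-102900912 on the minus strand and Aldoc spans chr11:78322968-78327781 on the plus strand. S100b (chr10:76253853-76261159) and Gja1 (chr10:56377330-56402513) both lie on the plus strand of chromosome 10. Slc1a2 lies at chr2:102658659-102790784, Slc1a3 at chr15:8634124-8710764 (minus strand), Glul at chr1:153899944-153909723 and Aldh1l1 at chr6:90486427-90600203. Smart-seq2 does not keep the strand of the RNA, so reads from overlapping genes cannot be told apart where exons are shared. Gfap shares 0 exon bases with Gm26668, which spans it, while Aldh1l1 shares 499 bases with Gm15756 and Slc1a2 shares fewer with Gm13872. Gm15756 was at most 5.37 RPKM in any sample, and Gm13872 was at most 4.75 and at 0 in most.

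The start regions of Gfap and S100b are shown because these genes gave the clearest pattern by genotype and by population. Each is 300 bases from RefSeq (GRCm38.p6), from 250 bases before the annotated start to 50 after it, 5′ to 3′ on the gene's own strand. Gfap lies at chr11:102897151-102897450 (minus) and S100b at chr10:76253586-76253885 (plus). Capitals mark a match to the STAT motif TTCNNNGAA, the letters bound by a family of signal-driven transcription factors of which STAT3 is known to act on Gfap.
Gfap: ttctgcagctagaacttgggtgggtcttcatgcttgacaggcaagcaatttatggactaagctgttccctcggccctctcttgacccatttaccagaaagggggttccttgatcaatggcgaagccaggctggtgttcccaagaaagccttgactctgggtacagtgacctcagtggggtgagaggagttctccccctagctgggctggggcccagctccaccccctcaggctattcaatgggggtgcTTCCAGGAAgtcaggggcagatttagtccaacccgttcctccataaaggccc
S100b: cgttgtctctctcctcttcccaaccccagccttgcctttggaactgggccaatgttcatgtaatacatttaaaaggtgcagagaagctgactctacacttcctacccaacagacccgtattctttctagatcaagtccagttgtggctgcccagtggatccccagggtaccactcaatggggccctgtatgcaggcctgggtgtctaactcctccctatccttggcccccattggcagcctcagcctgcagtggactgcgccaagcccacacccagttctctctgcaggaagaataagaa
RefSeq windows were found for 8 of the 9 members. All were searched on both strands for 4 motifs, whose matches may overlap. Of the 32851 RefSeq windows of the same length, 8.3% held the STAT motif given above and 7.81% the AP-1 motif TGANTCA. The palindromic motif of nuclear factor I (NFI), a family that acts in glia, was held by 0.0365%, and the TATA box TATAAA by 13.6%. The marked Gfap letters begin at position -2 and run across the annotated start, and whether STAT3 acts there was not tested. In other windows STAT letters occurred upstream of Slc1a3 and in the second window of Aldoc, AP-1 letters upstream of Gja1, and TATA letters upstream of Slc1a3. The S100b window held none of the 4.

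In control mice the members differed widely in RPKM, a unit that is per gene length and so can be compared between genes. Aldoc was the highest in every population, with medians from 504 RPKM in the vagus to 1615 in the lumbar cord. S100b had medians from 20.3 in the vagus to 534 in the lumbar cord, and Glul from 25.5 in the vagus to 70.8 in the ocular nuclei. The others were lower: population medians were 7.25 to 19.2 for Slc1a3, 5.67 to 20.0 for Gja1, 3.32 to 10.7 for Aqp4, 4.46 to 8.93 for Slc1a2 and 4.19 to 8.95 for Aldh1l1. Gfap had the lowest median of the 9 in 4 populations, 0 in the red nucleus, 0.0501 in the ocular nuclei, 1.64 in the facial nucleus and 3.05 in the lumbar cord. Its median was 4.89 in the hypoglossal nucleus and 8.04 in the vagus. For scale, the neuron gene Rbfox3 (NeuN) had population medians of 9.30 to 69.2 RPKM and Snap25, of the synaptic release machinery, of 880 to 1207. By median, Aldoc lay above Rbfox3 in every population, and S100b did so in all but the red nucleus (25.7 against 29.8). Glul also lay above Rbfox3 in the ocular nuclei (70.8 against 29.3), vagus (25.5 against 9.30) and hypoglossal nucleus (35.8 against 29.2). Slc1a3 (19.2) and Gja1 (18.5) did so in the vagus. These levels do not show which cells made the RNA, which was not tested. Aldoc and S100b are described by name, and not as measures of astrocyte content, because some neurons are known to make them.

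**Figure D1:**
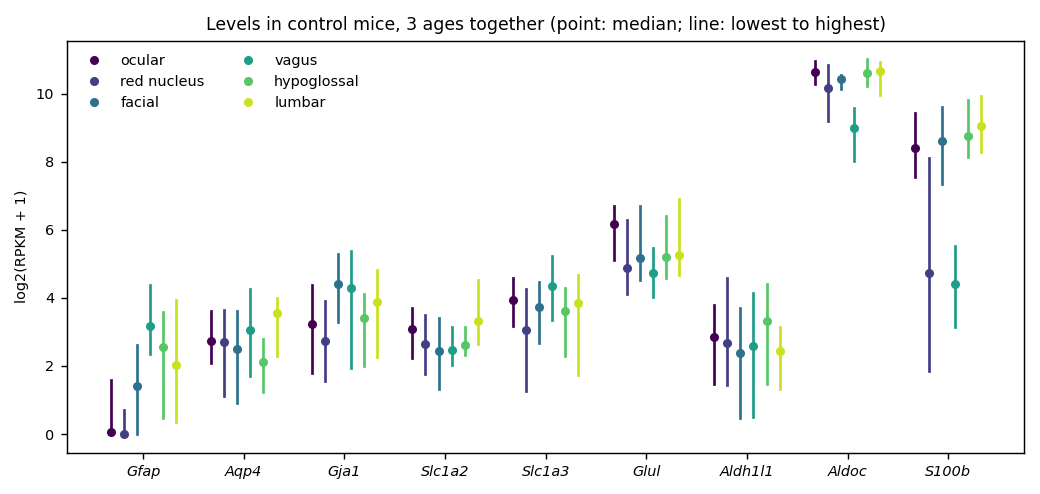
Level of each of the 9 genes in control mice by population, in RPKM on a log axis as labelled. Points are medians and lines run from the lowest to the highest mouse sample (11 to 13 samples a population). S100b and Aldoc are lowest in the vagus, and Gfap is highest there (median 8.04 RPKM). The Gfap median is 0 in the red nucleus and 0.0501 in the ocular nuclei.

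The order of the populations differed between members. Gfap ran from the red nucleus (0 to 0.645 RPKM, at 0 in 9 of 11 control samples) through the ocular (0 to 2.01) and facial nuclei (0 to 5.17) to the lumbar cord (0.278 to 14.4), the hypoglossal nucleus (0.376 to 10.9) and the vagus (4.07 to 19.6). Neighbours in that order overlapped, but no vagus control sample came down to the ocular or red nucleus range. S100b ran from the vagus (7.83 to 45.4) and red nucleus (2.63 to 274) to the ocular nuclei (187.7 to 689), facial nucleus (162.6 to 780), hypoglossal nucleus (281 to 892) and lumbar cord (310 to 975). The vagus stood apart from the other 4 motor populations without overlap, and from the red nucleus it did not. Aldoc ran from the vagus (at most 762), through the red nucleus (587 to 1832), to the other 4 populations (998 to 2052 in all), which overlapped with each other. Glul was highest in the ocular nuclei (33.9 to 103) and lowest in the vagus (15.1 to 43.3), and Gja1 was highest in the facial nucleus (8.88 to 38.0) and lowest in the red nucleus (1.97 to 14.0). For Aqp4, Aldh1l1, Slc1a2 and Slc1a3 the ranges of any neighbouring populations overlapped.

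Each population was tested against the mean of the other 5 in controls, in 1 limma fit over all samples with the mouse as a block. Of 54 tests of a member in a population, 30 passed an adjusted p of 0.05, 19 higher and 11 lower (34 had an unadjusted p under 0.05). Called shares over all 22270 genes tested were 17.2% for the ocular nuclei, 20.6% for the red nucleus, 9.42% for the facial nucleus, 26.1% for the vagus, 10.8% for the hypoglossal nucleus and 16.5% for the lumbar cord. Members called numbered 5 in the ocular nuclei, 5 in the red nucleus, 4 in the facial nucleus, 6 in the vagus, 4 in the hypoglossal nucleus and 6 in the lumbar cord. Each count is a larger share of the 9 members than that population's background. S100b was called in all 6. Its difference was 1.97 (log2, SE 0.153, adjusted p = 1.1e-20) in the lumbar cord, 1.69 in the hypoglossal nucleus, 1.41 in the facial nucleus and 1.23 in the ocular nuclei. It was -2.77 in the red nucleus and -3.53 (SE 0.158, adjusted p = 2.3e-38) in the vagus.

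Gfap and S100b differed in opposite directions in the vagus and the ocular nuclei, and in the same direction in the red nucleus, hypoglossal nucleus and lumbar cord. Gfap was higher in the vagus by 1.903 (log2, SE 0.233, adjusted p = 2.3e-11), in the hypoglossal nucleus by 0.95 and in the lumbar cord by 0.81. It fell by 1.46 below the others in the ocular nuclei and by 1.85 in the red nucleus, and the facial nucleus was not called (-0.34, adjusted p = 0.405). Aldoc was lower in the vagus (-1.60, adjusted p = 3.2e-36) and higher in the ocular, hypoglossal, lumbar and facial populations by 0.26 to 0.56. Of the glutamate genes, Slc1a3 was higher in the vagus (0.77) and lower in the red nucleus (-0.68). Slc1a2 was higher in the lumbar cord (0.72) and ocular nuclei (0.37) and lower in the facial nucleus (-0.44). Glul was higher in the ocular nuclei (0.99) and lumbar cord (0.38) and lower in the vagus (-0.71) and red nucleus (-0.61). The channel genes differed too: Gja1 was higher in the facial nucleus (0.94) and vagus (0.63) and lower in the red nucleus (-0.89), and Aqp4 was higher in the lumbar cord (0.76) and lower in the hypoglossal nucleus (-0.63). Aldh1l1 was called in none (adjusted p = 0.0569 in the hypoglossal nucleus and 0.410 to 0.937 in the other 5).

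The spread of each member over all 160 samples was also divided between population, age and genotype. Population accounted for 79.4% of the variance of S100b (log2 scale), 76.7% for Aldoc, 57.1% for Gfap and 38.8% for Glul, against 15.6% to 31.0% for the other 5. Age accounted for 28.6% in Glul, 21.7% in Slc1a2 and 16.6% in Slc1a3. Genotype accounted for 5.38% in Gfap, 2.11% in Slc1a2 and at most 0.215% in the other 7. Spread between mice of the same group was 3.94% in S100b and 64.8% in Aldh1l1.

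Within groups, the members fell into some that varied together weakly and some that did not. These correlations of log2(RPKM + 1) are over 160 samples from 34 mice that share mouse and library preparation, and they are descriptions. After group means were removed, Aqp4, Slc1a2, Slc1a3, Glul and Gja1 were positively correlated in every pair, from 0.204 (Slc1a2 with Slc1a3) to 0.492 (Slc1a3 with Gja1, Pearson). Gfap gave -0.048 to 0.171 with the other members. S100b and Aldoc had 0.789 before group means were removed and 0.073 after, and S100b had 0.701 and 0.124 with the mean of the neuron genes. With the mean of the 40 other astrocyte genes Gfap had 0.238 before and 0.249 after, its highest value of any list within groups, and with the mean of the reactive astrocyte list it had 0.550 and -0.065.

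Among the members, S100b gave the largest change with age. In the red nucleus it was 2.63, 4.93, 9.13 and 25.5 RPKM in the 4 control mice at day 2, then 13.8, 25.7 and 29.8 at day 5, and 126.8 to 274 in the 4 at day 10. The SMA mice had 3.02, 14.5, 14.7 and 16.6 at day 2, 23.1, 27.5, 29.8 and 35.7 at day 5, and 132.8 to 246.7 in the 4 at day 10. Day 10 lay above day 2 without overlap in both genotypes. In controls it rose by 4.56 on the log2 scale (213.1 ± 62.0 against 10.6 ± 10.3 RPKM, SD, n = 4 and 4, adjusted p = 1.6e-06), and in SMA mice by 4.03 (191.02 ± 47.2 against 12.2 ± 6.20, n = 4 and 4). S100b also rose in the ocular, facial, hypoglossal and lumbar populations of controls, from group means of 204.8 to 381 RPKM at day 2 to 648 to 855 at day 10. Rises there were 1.66, 1.81, 1.32 and 1.17 in controls and 1.36, 1.47, 0.80 and 1.13 in SMA mice, each called. In the vagus it was not called (0.67, adjusted p = 0.693 in controls, and 0.79, adjusted p = 0.413 in SMA mice).

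**Figure D2:**
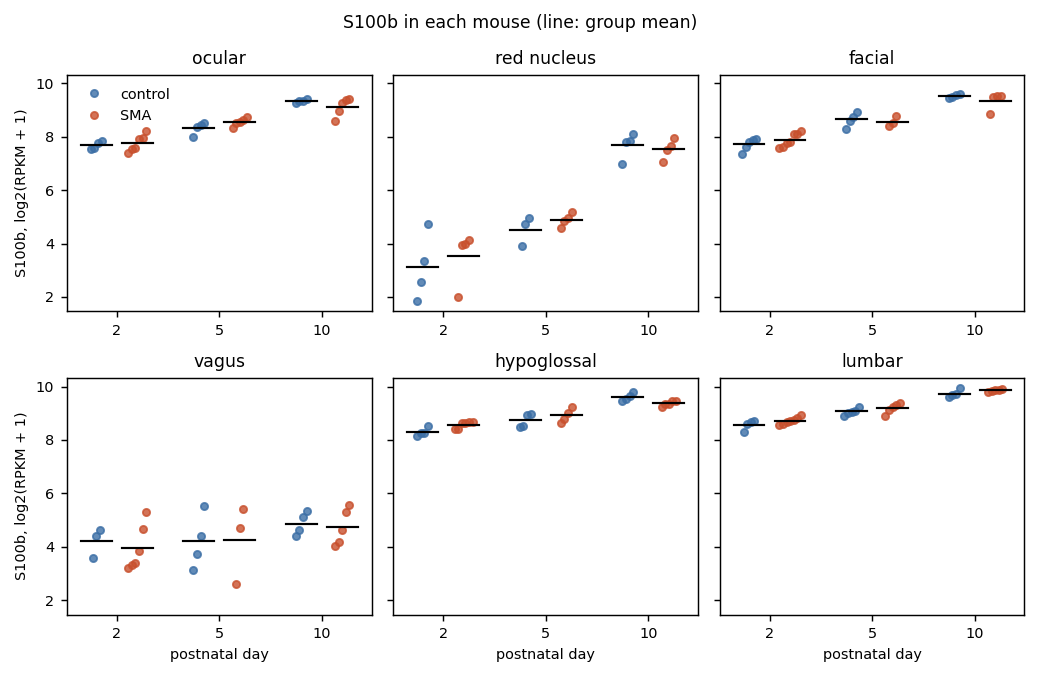
S100b in each mouse sample by population, as log2(RPKM + 1), at days 2, 5 and 10, with control in blue, SMA in red and the group mean as a black line. The red nucleus rises from 10.6 to 213.1 RPKM on average in controls, while the vagus stays at 5.04 to 46.5 RPKM at all ages.

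Day 10 was compared with day 2 in every population and genotype. In controls 14 of 54 tests were called, 10 higher at day 10 and 4 lower (26 had an unadjusted p under 0.05). The share of all genes called was 8.02% in the ocular nuclei (1 member), 11.1% in the red nucleus (2), 5.36% in the facial nucleus (3), 1.02% in the vagus (0), 5.11% in the hypoglossal nucleus (2) and 12% in the lumbar cord (6). In SMA mice 17 were called, 14 higher and 3 lower (25 unadjusted). There the background was 6.66% in the ocular nuclei (2 members), 5.06% in the red nucleus (2), 6.73% in the facial nucleus (4), 3.31% in the vagus (1), 4.31% in the hypoglossal nucleus (2) and 18.4% in the lumbar cord (6). In the vagus controls, where 0 were called, 5 members (Gfap, Aldh1l1, Slc1a3, Gja1 and Aldoc) had an unadjusted p under 0.05 by limma. The share of all genes under that unadjusted threshold is not given here, so no result is read from these 5. Of the calls, 11 were made in both genotypes, all with the same sign, 3 only in controls and 6 only in SMA mice, and whether these differ was tested by the age interaction given further on.

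The glutamate genes moved in opposite directions with age in the lumbar cord. Slc1a2 in controls was 5.30, 5.51, 5.90 and 6.80 RPKM at day 2 and 12.5, 12.7, 17.2 and 21.8 at day 10, with no overlap (1.28, SE 0.268, adjusted p = 0.00127). In SMA mice it rose by 1.28 too (14.0 ± 1.83, n = 5, against 5.37 ± 2.07, n = 7). Slc1a3 in controls was 10.1, 21.6, 22.2 and 24.5 at day 2 and 2.30, 7.15, 8.19 and 9.42 at day 10 and fell by 1.46 (adjusted p = 0.0319), and in SMA mice it fell by 1.08 (adjusted p = 0.0438). The Slc1a3 call was lost without any 1 of 5 mice in controls and of 12 in SMA mice. Astrocytes use both transporters, and why these genes moved in opposite directions was not tested. Slc1a3 also fell in the hypoglossal nucleus of controls, from 10.7 to 18.8 RPKM at day 2 to 3.86 to 7.77 at day 10 (-1.20, adjusted p = 0.00961). Slc1a2 was called higher in SMA mice of the ocular, facial and hypoglossal populations, by 0.89, 1.10 and 1.06, and without any 1 of 9 mice (ocular) or 14 (facial) that call was lost.

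Glul in lumbar controls was 33.5, 37.6, 37.9 and 43.1 RPKM at day 2, 24.5 to 34.0 at day 5, and 99.2, 108.8, 116.9 and 119.5 at day 10. The day 10 values were the highest of the 3 ages without overlap. The rise was 1.52 (SE 0.181, adjusted p = 5.7e-07) in controls and 0.93 in SMA mice, and Glul rose by 0.87 in facial controls (adjusted p = 0.0287, lost without any 1 of 4 mice). Gja1 fell in the facial nucleus, from 22.3 to 38.0 RPKM at day 2 to 8.88 to 16.7 at day 10 in controls (-1.40) and by 1.19 in SMA mice. Aldoc rose in the red nucleus (1.08 in controls, 0.75 in SMA) and in the vagus of SMA mice (0.78), and fell in the lumbar cord (-0.62 in controls, -0.47 in SMA). Aqp4 rose in lumbar controls (1.21, from 3.93 to 6.67 RPKM at day 2 to 10.8 to 14.9 at day 10). In lumbar SMA mice its value was 0.65 (adjusted p = 0.0742), and it was called without mouse 46, 61 or 206. Aldh1l1 was called in no population of either genotype.

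**Figure D3:**
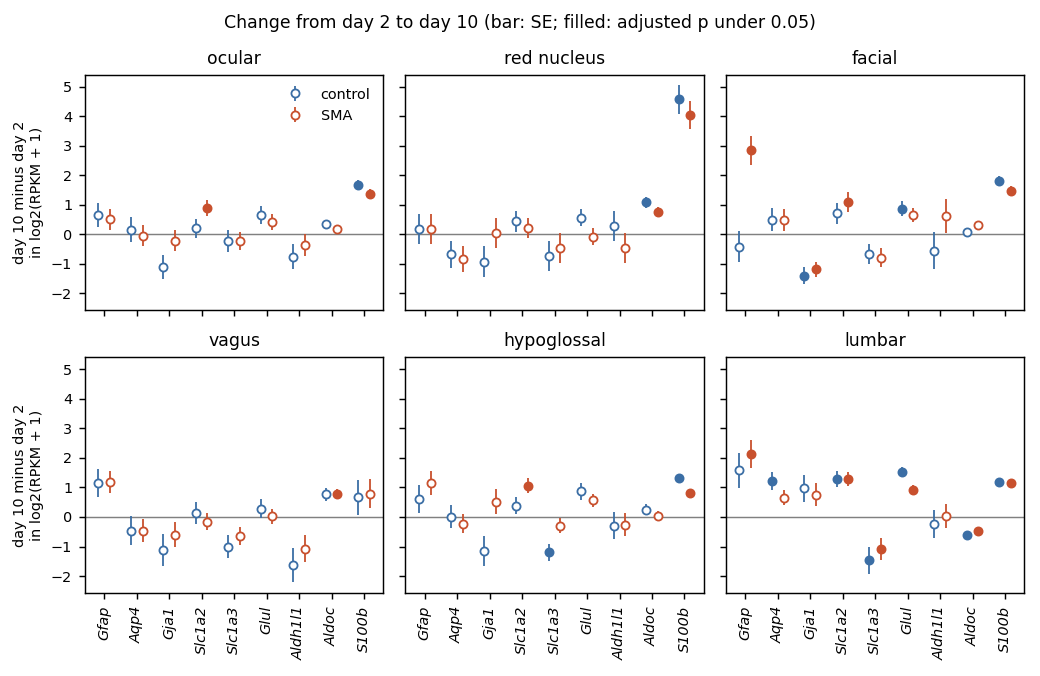
Difference between day 10 and day 2 in log2(RPKM + 1) for each member and population, in controls and SMA mice. Bars are standard errors and filled points passed an adjusted p of 0.05. S100b is called in 5 populations of each genotype, and Gfap is called in the facial nucleus and lumbar cord of SMA mice.

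Gfap was the only member called between SMA and control, and only in the facial nucleus at day 10. There the 4 SMA mice had 11.6, 14.8, 18.8 and 22.8 RPKM and the 4 controls had 0.726, 1.14, 1.64 and 3.00. Every SMA mouse lay above every control. Group means were 17.0 ± 4.88 and 1.63 ± 0.991 RPKM (SD, n = 4 and 4), and the difference was 2.81 on the log2(RPKM + 1) scale (SE 0.544, adjusted p = 0.00742). At day 5 the SMA mice had 2.60, 10.0 and 13.9 and the controls 0, 0.0939, 0.574 and 5.17, with 1 control above the lowest SMA mouse (2.22, SE 0.587, adjusted p = 0.463). At day 2 the groups lay together, 0 to 4.16 in SMA and 1.18 to 4.23 in controls (-0.45). With a pseudocount of 0.1 in place of 1 the day 10 difference was 3.43 and its adjusted p 0.180, so the call depends on the pseudocount. Without any 1 of the 34 mice it stayed called, with differences of 2.63 to 3.03.

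In the lumbar cord at day 5, the 5 SMA mice had 3.14, 5.13, 9.85, 11.2 and 69.9 RPKM of Gfap and the 5 controls 0.278, 0.749, 1.44, 3.01 and 3.05. The groups did not overlap, although the closest pair was 3.14 against 3.05. Reads from an earlier deposit were added to these control libraries, so genotype and this addition of reads cannot be told apart here. The difference was 2.28 (SE 0.522, adjusted p = 0.102) and was called without mouse 61, the lowest SMA mouse (2.66, adjusted p = 0.0331). At day 10 lumbar Gfap had 12.5, 12.96, 16.5, 20.0 and 24.5 in SMA and 7.83, 8.50, 11.2 and 14.4 in controls, which overlapped (0.66, adjusted p = 0.771). At day 2 they also overlapped, with 1.86 to 10.3 in SMA and 0.599 to 4.82 in controls.

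In the other 4 populations no Gfap difference was called either. Vagus SMA mice at day 10 had 13.8, 14.7, 21.2, 24.1 and 24.5 RPKM and controls 8.45, 9.58, 15.2 and 19.6, which overlapped (0.57, adjusted p = 1). Hypoglossal SMA mice at day 10 had 5.46, 10.2, 10.8, 11.8 and 12.1 and controls 3.05, 5.21, 5.81 and 5.98 (0.87, adjusted p = 0.764). Of the 5 SMA mice, 4 lay above all controls. In the ocular nuclei Gfap was at most 2.65 RPKM in any sample, and in the red nucleus it was at most 7.03, in SMA mouse 76 at day 5, and otherwise at most 1.93. Gfap was at 0 in 10 of 28 ocular and 12 of 23 red nucleus samples. No red nucleus control reached 1 RPKM (at most 0.645), so Gfap passed the filter there only through SMA samples. The level that 3 reads give was 0.0373 to 0.185 RPKM in the ocular samples and 0.0272 to 0.202 in the red nucleus, or 2.08 in the shallowest library, so levels such as those of the facial SMA mice at day 10 lay well above it.

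**Figure D4:**
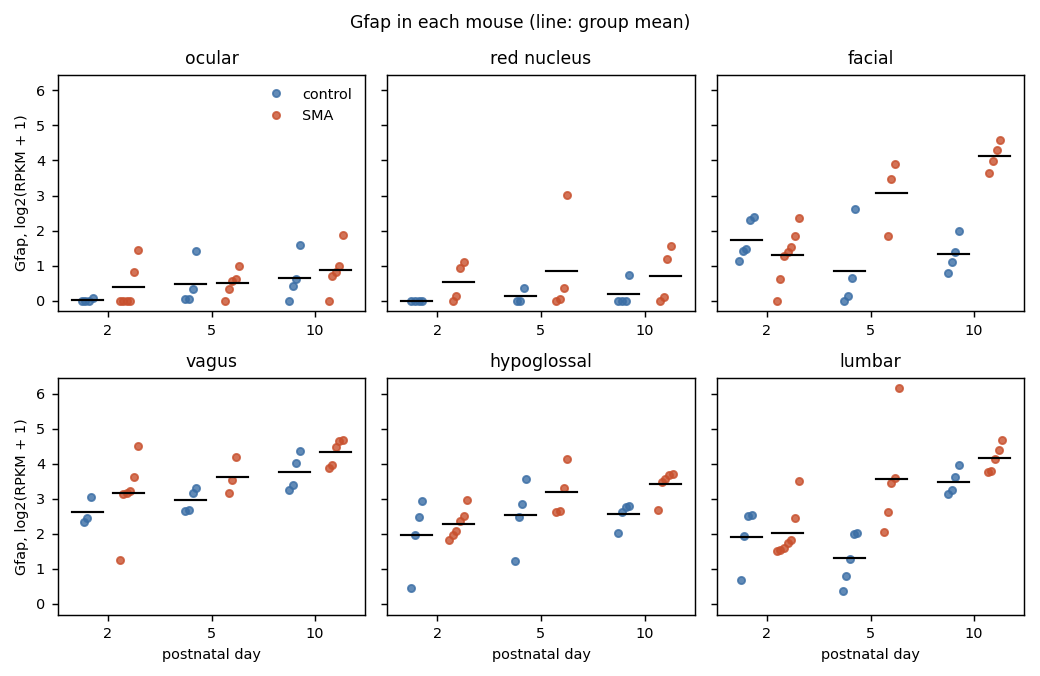
Gfap in each mouse sample by population, as log2(RPKM + 1), at days 2, 5 and 10, with control in blue, SMA in red and the group mean as a black line. In the facial nucleus at day 10 the SMA mice sit at 11.6 to 22.8 RPKM and the controls at 0.726 to 3.00. In the ocular nuclei 13 of 28 samples, and in the red nucleus 13 of 23, are under the level that 3 reads give.

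Over the 18 contrasts of population and age, 1 of 162 member tests was called, with 16 at an unadjusted p under 0.05. The background of all genes called between SMA and control at days 2, 5 and 10 was 0.132%, 0.0252% and 0.359% in the ocular nuclei and 0.0434%, 0.0062% and 0.0124% in the red nucleus. It was 0.0232%, 0.0695% and 0.666% in the facial nucleus, 0.00599%, 0.00599% and 0.00599% in the vagus, 0.0364%, 0.00607% and 0.0728% in the hypoglossal nucleus, and 0.0122%, 0.0488% and 0.775% in the lumbar cord. Without Gfap, 0 of 144 were called by limma, 13 had an unadjusted p under 0.05, and the smallest adjusted p was 0.304 (Glul, lumbar day 10). The median difference over the 9 members lay between -0.28 (vagus day 5) and 0.39 (hypoglossal day 10), and that over all genes between -0.01 and 0.13.

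Of the other 8 members, Aldoc and S100b had the narrowest ranges of difference between genotypes. Aldoc stayed between -0.20 and 0.24 and S100b between -0.25 and 0.39 in all 18 contrasts. Glul lay between -0.45 and 0.32, Slc1a2 between -0.34 and 0.67 (higher in SMA in 12 of 18), Aldh1l1 between -0.86 and 0.66 and Slc1a3 between -0.90 and 0.80. The channel genes had the widest range, -1.57 to 0.90 for Aqp4 and -1.94 to 1.01 for Gja1.

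The channel genes had lower values, not called, in the vagus of SMA mice at day 5. Gja1 was 3.32, 3.36 and 11.1 RPKM in SMA and 17.5, 18.5, 22.3 and 35.2 in controls (-1.94, SE 0.527, adjusted p = 0.889). Aqp4 was 1.06, 2.92 and 6.03 in SMA and 7.33, 8.18, 10.4 and 18.1 in controls (-1.57, adjusted p = 0.901), and in the red nucleus at day 5 it was 1.48 to 4.37 against 6.16 to 7.44 (-1.19). In the facial nucleus at day 10 Aqp4 went the other way, 6.58 to 13.4 in SMA against 3.32 to 6.34 (0.90, adjusted p = 0.599). Slc1a3 in the hypoglossal nucleus at day 10 was 9.12 to 13.6 in SMA and 3.86 to 7.77 in controls (0.80, adjusted p = 0.493). In all 5 of these contrasts the groups did not overlap, and none passed the adjusted threshold. Of the 162 member tests between genotypes 7 had no overlap, 2 of them Gfap. The share of all genes without overlap is not given here, so no result is read from the separation.

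**Figure D5:**
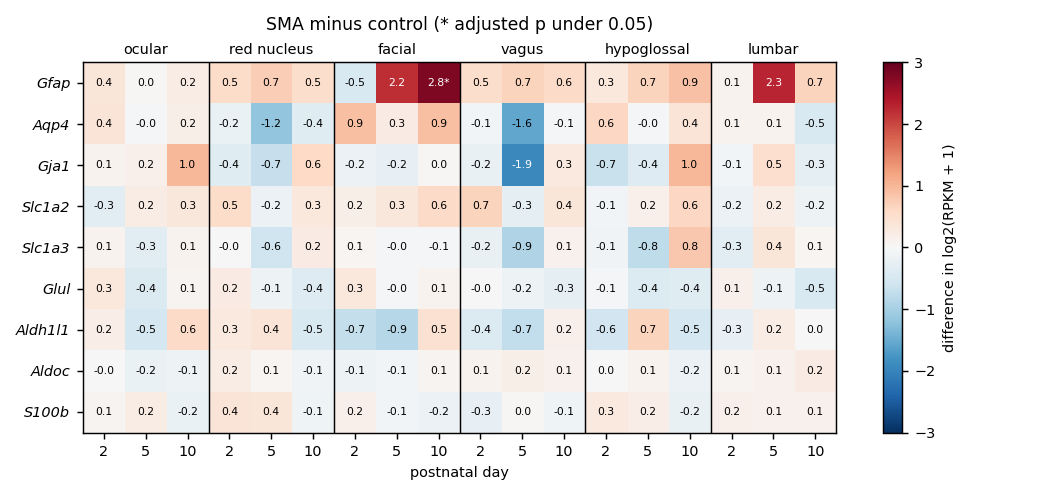
SMA minus control in log2(RPKM + 1) for the 9 members (rows) in 18 contrasts of population and age (columns), with * for an adjusted p under 0.05. Gfap is higher in SMA in 17 of 18, with its only call in the facial nucleus at day 10 (2.81), and no other member is called. In the red nucleus Gfap passed the filter only through SMA samples, so its direction there is not read as a result. Populations of the same age share mice, so the contrasts are not independent.

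Gfap was then set against the mean of the other 8 members in the same sample. The difference of that value between SMA and control was above 0 in 16 of 18 contrasts and ran from -0.53 (facial day 2) to 2.57 (facial day 10) on the log2 scale. It was above 0 in 11 of the 12 contrasts outside the ocular nuclei and red nucleus, where Gfap was low. Populations of the same age share mice, so these contrasts are not independent and the counts are descriptions. With S100b and Aldoc left out of the mean, since some neurons are known to make them, the counts were again 16 of 18 and 11 of 12. The facial day 10 value was then 2.47. No test was made on it. The Gfap difference exceeded that of each of the other 8 in 7 contrasts, among them the facial nucleus and lumbar cord at both days 5 and 10. The red nucleus at day 5 was among them too, where Gfap passed the filter only through SMA samples. In the lumbar cord at day 5 genotype and the addition of reads to the controls cannot be told apart. Groups did not overlap in 3: facial day 10, vagus day 5 and lumbar day 10. In the vagus at day 5 the other 8 had a median of -0.51, with Gja1 and Aqp4 lowest. At facial day 10 the other 8 had a median of 0.09 and ran from -0.18 to 0.90 (Aqp4).

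Gfap was called between ages in SMA mice and not in controls. In SMA mice it rose from day 2 to day 10 by 2.84 in the facial nucleus (SE 0.482, adjusted p = 0.000374, 1.74 ± 1.37 to 17.0 ± 4.88 RPKM) and by 2.13 in the lumbar cord (3.63 ± 3.07 to 17.3 ± 5.05, adjusted p = 0.00198). In controls the values were -0.42 in the facial nucleus and 1.57 in the lumbar cord (adjusted p = 0.760 and 0.0794), and the lumbar value was called without mouse 76 (adjusted p = 0.0194). The difference between SMA and control was tested for change with age in each population with an F test in limma. Of all genes, 0.101% were called in the ocular nuclei and 0.104% in the facial nucleus, and 0% in the red nucleus, vagus, hypoglossal nucleus and lumbar cord. Of 54 member tests 0 were called and 7 had an unadjusted p under 0.05. Facial Gfap was closest (adjusted p = 0.0882), and it was called without mouse 31 (adjusted p = 0.0365) or mouse 34 (0.0158). The F test takes the differences at days 5 and 10 together, each against day 2. At day 10 alone the facial Gfap difference was 3.26 more than at day 2 (SE 0.706). The test of the difference between populations called 0 of 27, with 4 at an unadjusted p under 0.05, on backgrounds of 0.355%, 0.162% and 0.575% at days 2, 5 and 10. For Gfap the adjusted p was 0.198 at day 5 and 0.283 at day 10, so the facial difference is not shown to be particular to that nucleus.

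Further astrocyte genes were read from a list of 40 symbols in the table, and genes known to rise in reactive astrocytes from a list of 38. Of the other astrocyte genes, 37 to 39 were tested in a population, and between SMA and control Agt (angiotensinogen) was the only call. Agt was higher in the ocular nuclei of SMA mice at day 2 (18.5 ± 8.21, n = 6, against 4.78 ± 0.860, n = 4, difference 1.65, adjusted p = 0.0396) and day 10 (11.96 ± 2.11, n = 5, against 3.30 ± 1.76, n = 4, 1.72, adjusted p = 0.0142). The groups did not overlap at either age. Of the reactive genes, 17 to 30 were tested and Lcn2 (lipocalin 2) was the only call, lower in the facial nucleus of SMA mice at day 10 (1.26 ± 1.47 against 7.45 ± 5.92 RPKM, -1.87, adjusted p = 0.0332, overlapping). There Vim was 15.9 ± 9.24 against 5.93 ± 1.80 (1.14, adjusted p = 0.228) and Serpina3n 232.8 ± 52.7 against 153.3 ± 8.97 (0.57, adjusted p = 0.529). Both were named after their values were seen and neither was called, so nothing is read from them about the reactive list.

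The Gfap call in the facial nucleus was read beside the markers of other cells. Over the 4 SMA and 4 control mice at day 10, the summed level of 13 microglia markers was 13.1 to 59.2 against 16.2 to 38.7 RPKM, with Itgam and Fcrls at 0 in all controls and Fcrls in all SMA mice. The 10 vessel markers summed to 5.56 to 12.95 against 1.57 to 17.9, the 11 oligodendrocyte markers to 207 to 335 against 258 to 311, and the 40 other astrocyte genes to 4309 to 5885 against 3962 to 5255. Ranges overlapped in each. In the lumbar cord at day 5, microglia markers summed to 11.6 to 92.1 in SMA against 14.7 to 40.9 in controls, and vessel markers to 12.1 to 44.6 against 10.8 to 17.4. In the facial nucleus at day 5, 7 of 10 oligodendrocyte markers tested had an unadjusted p under 0.05 and 0 were called by limma (median -1.57, 60.1 to 93.3 RPKM summed in SMA against 91.2 to 743 in controls). The part of these cells in the Gfap values was not tested. Of the lists of other cells, the only call between SMA and control was Mbp (myelin basic protein), higher in the red nucleus of SMA mice at day 2 (2.22, adjusted p = 0.0351).

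Genes of the astrocyte lists were also compared between day 10 and day 2. Fabp7, the fatty acid binding protein of radial glia, fell in all 6 populations of both genotypes, by 2.33 to 3.18 in controls and by 1.63 to 2.55 in SMA mice. Vim, the intermediate filament of immature glia, fell in all 6 in controls, by 2.74 to 4.33, and in 5 of 6 in SMA mice, the ocular nuclei not called. Kcnj10, the potassium channel of astrocytes, rose in the ocular, facial and lumbar populations of controls by 1.71, 1.52 and 2.44, and in those and the hypoglossal nucleus of SMA mice. In the lumbar cord 11 of 37 other astrocyte genes rose and 1 fell in controls, with 13 and 2 in SMA mice, where 12% and 18.4% of all genes were called. In the vagus 1 rose and 1 fell in controls, with 2 and 3 in SMA mice, against 1.02% and 3.31% of all genes. Of the 17 to 30 reactive genes tested, 1 to 2 rose and 1 to 5 fell in each population of controls, and 0 to 3 rose and 1 to 4 fell in SMA mice. No direction is read from these counts. Markers of oligodendrocytes, the myelin-forming glia that mature at these ages, rose in the same comparison: 10 of 11 in the ocular nuclei, 8 of 10 in the red nucleus, 6 of 10 in the facial nucleus, 7 of 11 in the hypoglossal nucleus and 9 of 11 in the lumbar cord of controls, and 0 of 8 in the vagus. Their part in the age changes of the members was not tested.

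The genes whose pattern over the 160 samples was most like that of Gfap were Gm15051_ann2, Gpx3, Tppp3, HOTAIRM1_5, Hoxb3os, Slc25a1, Lamp5, Hoxa5, Hspb1 and Hsp25-ps1 (Pearson 0.661 to 0.720). The same genes had -0.069 to 0.178 once group means were removed, so the likeness lies between groups. For the mean of the 9 members they were Tns1, Cpne6, Mcam, Calca, Sema3a, 9530056K15Rik, Arhgap36, Anxa4, Syndig1l and Nr3c1 (0.720 to 0.792, and -0.045 to 0.271 within groups).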

How the data were processed

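The authors deposited 1 table of RPKM, with 39410 rows (8942 at 0 in every library) and 168 library columns. Per the submitters' processing notes, STAR 2.4.1c and the builds mm10 and hg19 were used, with no role or order given. The counting and its strand setting are not given in the sources used here. Libraries of the same mouse and population (8 samples) were averaged. Tests used limma 3.58.1 (R 4.3.3) on log2(RPKM + 1), a scale that understates the change of low genes, with a trended eBayes fit, two-sided, and Benjamini-Hochberg adjustment within each contrast (adjusted p of 0.05). Tested genes had RPKM of 1 or more in at least as many samples as the smallest group. Each population had its own fit of its 6 groups. Comparisons between populations used 1 fit over all samples with the mouse as a block, since the labels' mouse number marks 1 animal. P-values of the fits per population rest on the spread between these mice. Those of the fit over all samples rest on the spread left within mice, since the mouse was a block.

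Depth came from low RPKM values of genes with 1 transcript, of which a median of 71.0% per library (58.4% to 75.5%) fell within 0.1% of whole reads, so no count test was run. The fits were tested on simulated data. The members and lists were chosen with earlier results of these data known. Named genes were the 9 members, list genes called without overlap between groups (up to 4 per comparison with the largest difference), and the 10 most like Gfap and the mean of the members. Lcn2, Mbp, Vim, Serpina3n, Olig2, Rbfox3, Snap25, Slc17a6 and Kcnj10 were named after their values were seen. Row names matched GENCODE M21 for 35356 rows. Alternatives were a pseudocount of 0.1, no filter, quantile normalization, each library as its own sample, only the groups compared in a fit, the block removed or random, and leaving out the library with the fewest reads, the day 2 control mice 240 and 244, or each mouse. Added after the data were seen were leaving out 2 samples high in Slc17a6, and leaving S100b and Aldoc out of the mean that Gfap was set against.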

Additional observations from a re-analysis of the deposited data

Results flagged for a closer look

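Of 288 groups of 4 to 7 mouse samples of a member, 16 (5.56%) held a sample that stood apart from the rest by Dixon's test. Chance alone gives about 1 in 20. Gfap had 4. SMA mouse 250 had 5.46 RPKM in the hypoglossal nucleus at day 10, below the other 4 SMA mice (10.2 to 12.1). SMA mouse 76 had 7.03 in the red nucleus at day 5, above the others (0 to 0.286). Control mouse 254 had 0.645 in the red nucleus at day 10 and control mouse 14 had 0.0583 in the ocular nuclei at day 2, where the other controls were at 0, and the latter value is under its 3-read floor of 0.0857.

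For the channel and folate genes, Aqp4 was 1.55 in SMA mouse 258 (hypoglossal nucleus, day 10, others 4.69 to 6.21) and Gja1 was 3.81 in SMA mouse 249 (vagus, day 10, others 12.96 to 18.8). Aldh1l1 was 1.39 in control mouse 247 (facial nucleus, day 10, others 3.71 to 4.19) and 23.3 in SMA mouse 207 (vagus, day 2, others 3.70 to 6.65). For the glutamate genes, Slc1a2 was 8.49 in control mouse 14 (facial nucleus, day 2, others 2.32 to 3.36) and 17.9 in SMA mouse 76 (ocular nuclei, day 5, others 5.13 to 6.42). Slc1a3 was 10.1 in control mouse 28 (lumbar cord, day 2, others 21.6 to 24.5) and 3.94 in control mouse 75 (lumbar cord, day 5, others 13.4 to 21.0). Glul was 20.6 in control mouse 252 (vagus, day 10, others 41.1 to 43.3). S100b was 459 in SMA mouse 196 (facial nucleus, day 10, others 728 to 742) and 3.02 in SMA mouse 211 (red nucleus, day 2, others 14.5 to 16.6), and Aldoc was 618 in control mouse 71 (vagus, day 5, others 351 to 386).

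Among the listed genes, the difference between SMA and control differed between populations for Olig2 at day 2 (adjusted p = 0.0181 by limma's F test) and for Lcn2 at day 10 (adjusted p = 0.00775). Olig2 is a transcription factor of the oligodendrocyte lineage.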

How the results depend on the processing

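Between SMA and control, the 1 member call (Gfap, facial nucleus, day 10) became 0 with a pseudocount of 0.1 and stayed at 1 under the other settings, while leaving out mice gave 1 to 2 (2 without mouse 61, when lumbar Gfap at day 5 was also called). The change of that difference with age had 0 calls, and 0 to 1 without a mouse (1 without mouse 31 or 34). Its difference between populations had 0 calls, and 0 to 1 without a mouse (Gfap at day 5 without mouse 34, adjusted p = 0.0313). For day 10 against day 2, leaving out mice gave 12 to 15 calls in controls (14 in the report) and 13 to 18 in SMA mice (17). The population comparison had 30 calls with the mouse as a block, 31 with no replicate block and 31 with the mouse as a random effect (correlation 0.0366), the addition being Aldh1l1 in the hypoglossal nucleus. The block changed no other call, and the difference between populations had 0 calls under each. Age calls that were lost under a setting were Slc1a2 in the facial nucleus of SMA mice (adjusted p = 0.0642 with the pseudocount of 0.1, 0.0527 without the filter), lumbar Slc1a3 without the filter (0.0577 in controls, 0.0754 in SMA) and after quantile normalization (0.0557 and 0.0509), and red nucleus Aldoc in SMA mice after quantile normalization (0.0792). With only the compared groups in the fit, Glul in facial controls (0.0760) and Slc1a3 in hypoglossal controls (0.0803) were lost, and Gfap was gained in lumbar controls (0.0285) and the hypoglossal nucleus of SMA mice (0.0276). No called result changed direction. The cause was not tested.

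Single mice also decided borderline calls, lost or gained. The Slc1a2 rise of SMA mice was lost in the ocular nuclei without any 1 of mice 16, 196, 199, 206, 209, 211, 249, 254 or 258, and in the facial nucleus without 16, 18, 31, 38, 61, 77, 196, 199, 209, 211, 247, 249, 252 or 258. The lumbar Slc1a3 fall was lost in controls without 20, 240, 244, 247 or 254 and in SMA mice without 20, 38, 41, 55, 196, 206, 207, 240, 249, 250, 254 or 258. Facial Glul in controls was lost without 14, 240, 247 or 253, and red nucleus Aldoc in SMA mice without 249 or 258. Population calls lost were ocular Slc1a2 (without 26, 30, 75, 244, 247 or 254), facial Slc1a2 (34) and vagus Gja1 (26, 29 or 252). Age calls gained without 1 mouse were Aqp4 in lumbar SMA mice (46, 61 or 206), Gfap in vagus SMA mice (209, adjusted p = 0.0337), Gfap in lumbar controls (76), Glul in hypoglossal controls (18 or 252) and facial SMA mice (206), and Gja1 in ocular controls (253). Population calls gained were hypoglossal Aldh1l1 (26, 29, 207 or 247), red nucleus Slc1a2 (34), and vagus Slc1a2 after quantile normalization (0.0373). Hypoglossal Aldh1l1 was also gained with each library as its own sample (0.0428). The comparison of genotypes without the day 2 control mice 240 and 244 left 1 vagus control at that age, assumed to vary as the other groups. Gfap could not be fitted in the ocular nuclei and red nucleus with only the compared groups, nor in the ocular nuclei without mouse 199 or 211, because it failed the filter there.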
